A study of Mus musculus with 24 samples.

Results

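The transcripts of 9 genes that carry iron into the cell, store it, sense it and build it into iron-sulfur clusters were followed in conventional CD4+ T (Tconv) cells of mice with B6 or NZB mitochondrial DNA. The genes were taken by symbol (Tfrc, Fth1, Ftl1, Slc11a2, Ireb2, Aco1, Slc25a28, Iscu and Nfs1) and matched to Ensembl identifiers with the mouse annotation, 9 of the 55414 genes in the count table. The rule uses names and no measured value, but the list was drawn up with earlier results of these data known. All 9 had counts and all 9 passed the filter on low counts that left 10566 genes for testing. The mice were conplastic, which means that B6 mtDNA or NZB mtDNA was carried on a shared C57BL/6J nuclear genome, so that the nuclear genes described here are those of one strain in every group. Splenic CD4+ CD25- cells were separated on magnetic columns and either left resting or activated. By the study's methods, activation was with beads that engage CD3 and CD28 plus IL-2, for 72 h. There were 6 libraries in each of 4 groups: resting B6 mtDNA, activated B6 mtDNA, resting NZB mtDNA and activated NZB mtDNA. The labels give the strain of mtDNA and the state of each library but neither the age of the mice nor whether replicates came from separate animals, so p-values measure the spread between these libraries, which may be technical.

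Most cells take up iron bound to transferrin through the transferrin receptor, reduce it in the endosome and release it through a divalent metal transporter, after which it is used, exported or held inside the hollow shell of ferritin. Iron-regulatory proteins read the cytosolic iron level: when iron is scarce they bind stem-loops called iron-responsive elements, which blocks translation of ferritin mRNA and protects transferrin receptor mRNA from decay. Inside mitochondria iron is joined to sulfur on a scaffold protein, and the clusters are passed to enzymes of respiration, metabolism and DNA synthesis, all of which dividing T cells require.

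The elements of the ferritin and transferrin receptor transcripts are shown because, within the list, only these transcripts matched the pattern searched for. They were found by searching the UTRs of the GRCm39 annotation, on the transcript strand, for an unpaired C, any 5 bases and the loop CAGTGN, in which the 5 bases before the loop pair with the 5 bases after it. The capitals mark the unpaired C of the bulge and the 6 bases of the loop. The Fth1 5′ UTR holds a match at chr19:9960096-9960124 on the plus strand and the Ftl1 5′ UTR holds one at chr7:45109203-45109231 on the minus strand. The Tfrc 3′ UTR holds 4 matches on the plus strand, at chr16:32450037-32450065, chr16:32450416-32450444, chr16:32450481-32450509 and chr16:32450528-32450556.
Fth1: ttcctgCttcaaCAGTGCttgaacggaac
Ftl1: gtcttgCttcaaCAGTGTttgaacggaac
Tfrc site 1: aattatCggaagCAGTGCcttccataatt
Tfrc site 2: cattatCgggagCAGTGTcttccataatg
Tfrc site 3: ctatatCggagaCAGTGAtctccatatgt
Tfrc site 4: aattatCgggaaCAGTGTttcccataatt
Such a match was present in the 5′ UTR of 48 of 21254 genes (0.226%) and in the 3′ UTR of 243 of 21713 genes (1.12%). The UTRs of the other 6 genes did not hold these letters, which says nothing about other forms of the element. The authors mapped reads to 1000 bases at the 3′ end, and the 4 Tfrc matches lie 1056 to 1547 bases before the end of the transcript, outside that stretch. The Fth1 and Ftl1 transcripts are so short that their 5′ elements lie 814 and 863 bases before the end. The counts are sums over a gene and do not show which bases were read.

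Libraries held 2157475 to 6449395 UMI counts, except activated NZB replicate 1 (641467) and resting NZB replicate 2 (51409). In that smallest library single members rested on 0 to 3 counts apart from Fth1, and several of the results that it touches are given with and without it. Levels are UMI counts scaled by TMM and given for a library of 1000000 counts (CPM), and they were compared between libraries and never between genes. A gene was called where edgeR's quasi-likelihood test gave a p of at most 0.05 after Benjamini-Hochberg adjustment over all genes tested, with no fold cut-off. The sum of 8 T cell identity markers was 3068 to 5420 CPM over the 24 libraries, and the sum of 8 activation markers was 369 to 612 CPM at rest and 1002 to 1876 CPM after activation, without overlap. Of these 8, 5 were called higher and 1 lower in each haplotype. Mean Top2a was 95.5 CPM at rest and 594 CPM after activation in B6 and 67.6 and 646 CPM in NZB mtDNA cells. Mean Myc was 131 and 75.9 CPM in B6 and 116 and 101 CPM in NZB mtDNA cells. Mean Cd44 was 36.8 and 30.1 CPM in B6 and 56.3 and 24.9 CPM in NZB mtDNA cells. RNA of other cells moved with activation as well. The sum of 13 macrophage and monocyte markers was 423 to 2719 CPM in the resting and 8.36 to 109 CPM in the activated libraries, with C1qa and Fcgr1 at 0 in both activated groups. The sum of 11 erythroid markers was 195 to 7813 CPM at rest and 30.7 to 252 CPM after activation. Neutrophil marker sums were 405 to 20722 CPM at rest and 7.74 to 190 CPM after activation, and B cell sums were 5706 to 17412 and 1104 to 6106 CPM. Sums of CD8 T cell markers were 16.9 to 142 CPM at rest and 82.0 to 534 CPM after activation, and those of platelet markers 8.27 to 53.5 and 18.0 to 505 CPM, both with higher medians after activation in each haplotype. In bulk RNA, fewer cells of a type and less RNA per cell cannot be told apart. The same results were computed over the 21 libraries whose group means match the study's supplementary table, which leaves out resting NZB replicates 2 and 6 and activated NZB replicate 6.

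Activated cells of both haplotypes had less ferritin heavy chain RNA (Fth1), less of the mitochondrial iron importer Slc25a28, and more Aco1. In B6 mtDNA cells 4 of the 9 genes were called, Aco1 higher and Fth1, Slc25a28 and Iscu lower, against 46.9% of all genes tested. In NZB mtDNA cells 6 were called, with Slc11a2, Aco1 and Nfs1 higher and Fth1, Ftl1 and Slc25a28 lower, against 53.5% of all genes tested. Shares of all genes called higher and lower were 22.4% and 24.5% in B6 and 25.2% and 28.4% in NZB mtDNA cells. The median log2 fold change of the 9 genes was 0.16 in B6 and -0.16 in NZB mtDNA cells, beside -0.03 and -0.06 over all genes. With a log2 difference of at least 1 required as well, 0 of the 9 genes were called by edgeR in either haplotype, beside 17.7% and 23.4% of all genes. Over the 21 libraries 5 were called in B6, where Ftl1 was added as lower, and 6 in NZB mtDNA cells, beside 50.3% and 53.2% of all genes. The share of members called is thus near the background in both haplotypes, and the genes did not move in one direction.

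**Figure D1:**
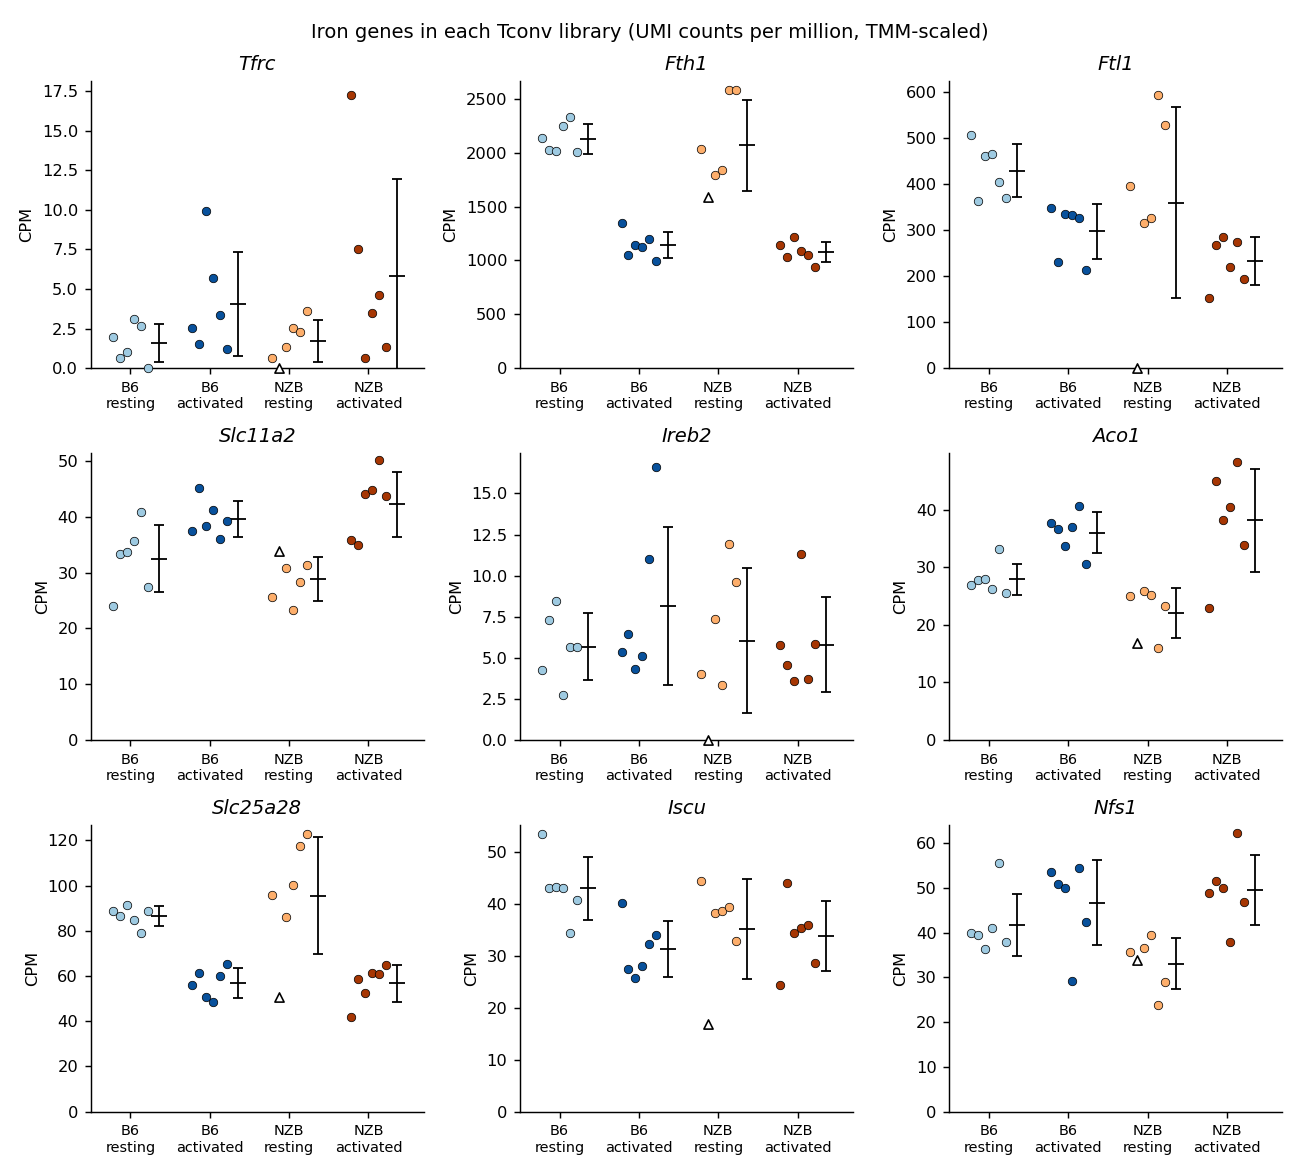
Level of each of the 9 iron genes in each library, in CPM on linear axes that start at 0. Circles are libraries coloured by group, the open triangle is resting NZB replicate 2 with 51409 UMI counts, and bars give the mean and SD of each group (n = 6). The resting and activated libraries are apart for Fth1 in both haplotypes, with the lowest resting value at 1592 CPM and the highest activated value at 1348 CPM.

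**Figure D2:**
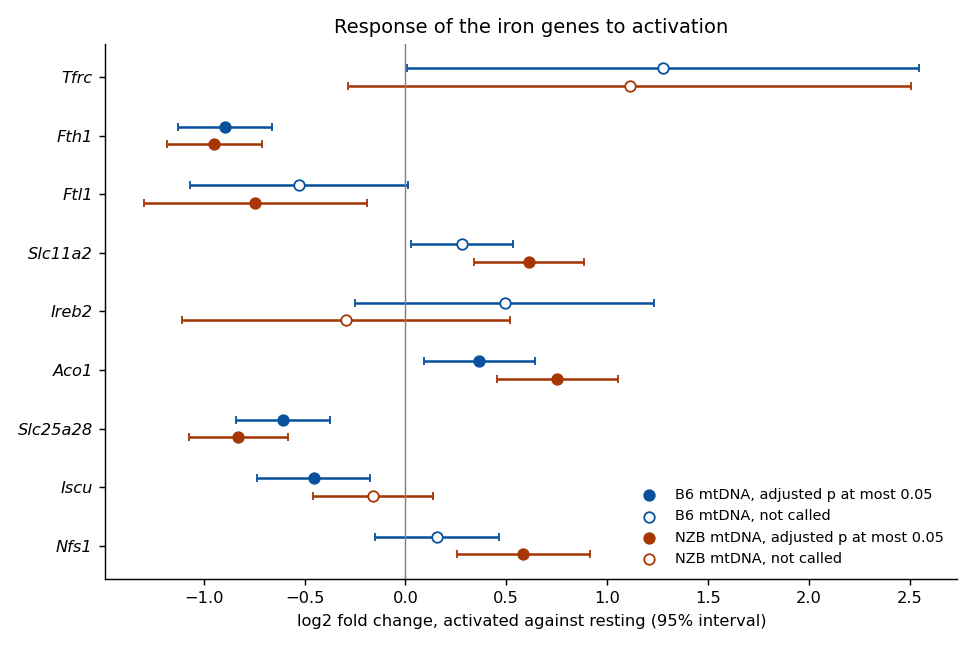
Log2 fold change of activated against resting cells for each gene in B6 mtDNA (blue) and NZB mtDNA (orange) cells, with 95% intervals from the fit across all genes. Filled circles passed an adjusted p of 0.05. Fth1 lies at -0.89 and -0.95, Tfrc has the widest intervals, and the intervals of both haplotypes overlap for each gene.

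Ferritin is a shell of heavy and light chains. Fth1 (chr19:9957911-9962462, plus strand, 4 exons, GRCm39) encodes the heavy chain, which oxidises iron for storage. Its level in resting B6 mtDNA cells was lowest at 2006, median 2077 and highest 2335 CPM, and in activated B6 mtDNA cells it was 992, 1137 and 1348 CPM. Every activated library lay below every resting one. For NZB mtDNA cells the lowest, median and highest levels were 1592, 1936 and 2583 CPM at rest and 942, 1069 and 1217 CPM after activation, again without overlap. The lowest resting value came from the smallest library, where Fth1 had 94 counts, and without it the lowest was 1789 CPM. Fth1 fell by 0.89 on the log2 scale in B6 mtDNA cells (SE 0.11, 95% interval -1.13 to -0.66, adjusted p = 5.95e-07), to 0.538 of the resting level. It fell by 0.95 in NZB mtDNA cells (SE 0.11, 95% interval -1.18 to -0.71, adjusted p = 1.96e-07), to 0.518 of the resting level. As a share of all UMI counts, Fth1 went from 0.205% ± 0.0228 to 0.120% ± 0.0142 in B6 and from 0.196% ± 0.0245 to 0.109% ± 0.00931 in NZB mtDNA cells (SD, n = 6).

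Ordered by mean level, Fth1 stood highest in resting B6 (2127 ± 138 CPM), then resting NZB (2069 ± 420), activated B6 (1144 ± 123) and activated NZB mtDNA cells (1078 ± 95.1). Only the step between resting NZB and activated B6 mtDNA cells was larger than the SDs of both groups added together, which is the measure of spread used for neighbours throughout.

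Macrophages and red cell precursors are also rich in ferritin, so Fth1 was set beside their markers in each library. The macrophage sum at rest was carried mainly by Lyz2, as given above. Among the resting B6 libraries, replicate 2 had the lowest macrophage sum (789 CPM) and 2022 CPM of Fth1, while replicate 5 had the highest macrophage sum (2557 CPM) and 2335 CPM of Fth1. Replicate 6 had the lowest Fth1, 2006 CPM, at a macrophage sum of 2245 and a neutrophil sum of 7641 CPM, and replicate 4 had 2249 CPM of Fth1 at a macrophage sum of 837 CPM. Among the resting NZB libraries, replicate 5 had a macrophage sum of 552, a neutrophil sum of 405 and an erythroid sum of 308 CPM with 2578 CPM of Fth1. Resting NZB replicate 6 had sums of 2719, 20722 and 4315 CPM for the same markers with 2583 CPM of Fth1. NZB replicates 5 and 6 had nearly equal Fth1 in CPM at very unequal marker sums, while Fth1 was 0.213% and 0.237% of their UMI counts. Between the states the marker sums and Fth1 were both lower after activation. The part of other cells' RNA in the fall of Fth1 was not tested.

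Ftl1 (chr7:45107367-45109308, minus strand, 4 exons) encodes the light chain, which helps the iron core to form. The lowest, median and highest levels in B6 mtDNA cells were 364, 433 and 507 CPM at rest and 213, 329 and 347 CPM after activation. These ranges did not overlap, yet the log2 fold change of -0.53 (SE 0.26, 95% interval -1.07 to 0.01) had an adjusted p of 0.102 over the 24 libraries and of 0.0116 over the 21. NZB mtDNA cells had levels of 0, 361 and 594 CPM at rest and 152, 243 and 284 CPM after activation. Ftl1 fell by 0.74 on the log2 scale there (SE 0.27, 95% interval -1.30 to -0.19, adjusted p = 0.0216), and by 0.75 over the 21 libraries (adjusted p = 0.00242).

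The value of 0 belongs to resting NZB replicate 2, in which the share of the other resting libraries would give 20.7 counts. Of 736 genes for which at least 10 counts would be found there in the same way, Ftl1 and Gapdh were at 0. That library decided the Ftl1 call in B6 mtDNA cells, since all 4 groups share one estimate of the spread: without it the adjusted p was 0.0195. The call in NZB mtDNA cells was lost without activated NZB replicate 1 (adjusted p = 0.0523) or resting NZB replicate 5 (adjusted p = 0.0681). By mean level Ftl1 had the same order of groups as Fth1, at 429 ± 57.6, 360 ± 208, 297 ± 59.6 and 232 ± 52.1 CPM, and no neighbours differed beyond their spread.

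The number of Fth1 counts for each Ftl1 count was compared between groups as a measure of the balance of the chains, without scaling for transcript length. It was 5.03 ± 0.651 in resting and 3.94 ± 0.566 in activated B6 mtDNA cells (SD, n = 6 each). For NZB mtDNA cells it was 5.14 ± 0.557 at rest (n = 5, since no ratio exists for replicate 2) and 4.87 ± 1.36 after activation (n = 6). The ranges overlapped in both haplotypes, at 4.21 to 5.77 against 3.39 to 4.66 and at 4.34 to 5.68 against 3.83 to 7.48, the last value from activated NZB replicate 1.

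Processed ferritin copies in the genome can share reads with these genes. Over all libraries the copies Fth1-ps and Ftl1-ps1 had 226 and 16 counts, Fth-ps2, Fth-ps3 and Ftl2-ps had 1 each and Ftl1-ps2 had 0, beside 119734 for Fth1 and 25869 for Ftl1. Within the last 1000 bases Fth1 overlaps Gm36913 (8 counts) and Ftl1 overlaps Gm10252 (55 counts), both on the opposite strand, and the counting was not stated to use strand.

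Tfrc (chr16:32427556-32451612, plus strand, 19 exons) encodes the transferrin receptor, a classical surface marker of activated lymphocytes. It was thinly counted, with 222 UMI counts over the 24 libraries and at most 30 in one. The lowest, median and highest B6 levels were 0, 1.50 and 3.13 CPM at rest and 1.19, 2.94 and 9.91 CPM after activation. The NZB levels were 0, 1.82 and 3.61 CPM at rest and 0.654, 4.07 and 17.3 CPM after activation. The ranges overlapped in both haplotypes, and the summed counts were 36 and 88 in resting and activated B6 and 29 and 69 in resting and activated NZB mtDNA cells.

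The log2 fold change of Tfrc was 1.28 in B6 mtDNA cells (SE 0.62, 95% interval 0.01 to 2.54, adjusted p = 0.0910) and 1.11 in NZB mtDNA cells (SE 0.68, 95% interval -0.29 to 2.51, adjusted p = 0.172). Over the 21 libraries the NZB value was 1.65 with an adjusted p of 0.0665. Tfrc was not called under any of the 36 alternatives in either haplotype, with values of 0.84 to 1.78 in B6 and 0.64 to 1.73 in NZB mtDNA cells. The activated libraries were spread widely, from 3 to 30 counts in B6 mtDNA cells, and a p above the threshold does not show that the level was the same. The means ran from activated NZB (5.81 ± 6.12 CPM) through activated B6 (4.04 ± 3.30) and resting NZB (1.74 ± 1.32) to resting B6 mtDNA cells (1.58 ± 1.22), with no neighbours apart beyond their spread.

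Slc11a2 (chr15:100285776-100322953, minus strand, 17 exons) encodes the divalent metal transporter that moves iron out of the endosome. The lowest, median and highest NZB levels were 23.2, 29.7 and 33.9 CPM at rest and 34.9, 44.0 and 50.2 CPM after activation, without overlap. The highest resting value was 2 counts in replicate 2, the smallest library. Slc11a2 rose 1.53-fold (log2 fold change 0.61, SE 0.13, 95% interval 0.34 to 0.88, adjusted p = 0.000391). B6 mtDNA cells had levels of 23.9, 33.6 and 40.9 CPM at rest and 36.1, 38.8 and 45.3 CPM after activation. Here the ranges overlapped and the log2 fold change of 0.28 (SE 0.12, 95% interval 0.03 to 0.53) missed the threshold at an adjusted p of 0.0621.

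The B6 value for Slc11a2 passed the threshold without any one of resting NZB replicate 2 (adjusted p = 0.0370), resting B6 replicate 3 (0.0494) or resting B6 replicate 5 (0.0189). The responses in both haplotypes differed by 0.33 on the log2 scale (95% interval -0.04 to 0.70, adjusted p = 0.403), so a difference between haplotypes was not shown. The order of means was activated NZB (42.3 ± 5.82 CPM), activated B6 (39.6 ± 3.29), resting B6 (32.5 ± 6.04) and resting NZB mtDNA cells (28.9 ± 3.93), with no neighbours apart beyond their spread.

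The iron-regulatory proteins are encoded by Aco1 and Ireb2. Aco1 (chr4:40142998-40199010, plus strand, 21 exons) encodes a protein that acts as cytosolic aconitase while it holds an iron-sulfur cluster and binds iron-responsive elements once the cluster is lost. Its lowest, median and highest B6 levels were 25.6, 27.4 and 33.1 CPM at rest and 30.5, 36.9 and 40.7 CPM after activation. The NZB levels were 16.0, 24.2 and 25.9 CPM at rest and 23.0, 39.4 and 48.3 CPM after activation. The ranges overlapped in both haplotypes, in NZB mtDNA cells through activated replicate 1, which had 16 counts.

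Aco1 rose 1.29-fold in B6 (log2 fold change 0.37, SE 0.13, 95% interval 0.09 to 0.64, adjusted p = 0.0275) and 1.69-fold in NZB mtDNA cells (0.75, SE 0.14, 95% interval 0.46 to 1.05, adjusted p = 0.000105). The B6 call was lost without activated B6 replicate 5 (adjusted p = 0.0643), resting B6 replicate 1 (0.0507) or resting B6 replicate 4 (0.0517). It was also lost when sets of libraries, made from the reads per UMI, were added to the fit (adjusted p = 0.150). By mean level the order was activated NZB (38.2 ± 8.98 CPM), activated B6 (36.1 ± 3.52), resting B6 (28.0 ± 2.71) and resting NZB mtDNA cells (22.1 ± 4.41), and the step from activated to resting B6 mtDNA cells exceeded the spread.

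Ireb2 (chr9:54770970-54820011, plus strand, 22 exons) encodes the second iron-regulatory protein, which is degraded when iron is plentiful. It had 485 counts in all and at most 43 in a library. Its lowest, median and highest B6 levels were 2.74, 5.66 and 8.43 CPM at rest and 4.30, 5.89 and 16.6 CPM after activation. The NZB levels were 0, 5.70 and 11.9 CPM at rest and 3.60, 5.16 and 11.3 CPM after activation. The value of 0 came from resting replicate 2, the smallest library. The groups overlapped throughout. The log2 fold changes of 0.49 (95% interval -0.25 to 1.23, adjusted p = 0.273) and -0.30 (SE 0.40, adjusted p = 0.550) were not called, and the mean levels, from 5.67 ± 2.04 CPM in resting B6 to 8.13 ± 4.80 CPM in activated B6 mtDNA cells, lay within each other's spread.

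Slc25a28 (chr19:43650480-43664460, minus strand, 4 exons) encodes mitoferrin-2, a carrier that brings iron across the inner mitochondrial membrane in most cell types. In B6 mtDNA cells its lowest, median and highest levels were 79.1, 87.6 and 91.4 CPM at rest and 48.3, 57.9 and 65.4 CPM after activation, without overlap. Slc25a28 fell by 0.61 on the log2 scale (SE 0.11, 95% interval -0.84 to -0.37, adjusted p = 0.000103), to 0.657 of the resting level. NZB mtDNA cells had levels of 50.8, 98.0 and 123 CPM at rest and 41.7, 59.7 and 64.9 CPM after activation. The overlap came from resting replicate 2, with 3 counts, and the ranges were apart over the 21 libraries. There it fell by 0.83 (SE 0.12, 95% interval -1.07 to -0.58, adjusted p = 2.40e-06), to 0.563 of the resting level. Ordered by mean, resting NZB (95.5 ± 25.8 CPM) and resting B6 (86.6 ± 4.30) stood above activated B6 (56.9 ± 6.54) and activated NZB mtDNA cells (56.7 ± 8.38), and only the step between the states exceeded the spread.

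Its close homologue Slc25a37, mitoferrin-1, is best known from red cell precursors. It had 1453 counts beside 5604 for Slc25a28, and fell by 1.45 in B6 and by 1.53 in NZB mtDNA cells on the log2 scale (adjusted p = 1.19e-06 and 1.12e-06). Its fall stands beside the lower erythroid marker sums given above, 575 to 7813 against 30.7 to 252 CPM in B6 and 195 to 4315 against 34.1 to 63.3 CPM in NZB mtDNA cells. The part of erythroid RNA in it was not tested.

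Cluster assembly begins with Nfs1 (chr2:155965556-155986374, minus strand, 13 exons), the cysteine desulfurase that supplies the sulfur. The lowest, median and highest B6 levels were 36.4, 39.7 and 55.5 CPM at rest and 29.2, 50.3 and 54.5 CPM after activation, and the log2 fold change of 0.16 (SE 0.15, 95% interval -0.15 to 0.46, adjusted p = 0.409) was not called. The NZB levels were 23.8, 34.8 and 39.5 CPM at rest and 37.9, 49.5 and 62.2 CPM after activation. Nfs1 rose 1.50-fold there (log2 fold change 0.59, SE 0.16, 95% interval 0.25 to 0.92, adjusted p = 0.00352), with 1 activated library inside the resting range. With a replicate block by label number the NZB value was 0.39 and not called (adjusted p = 0.0603), and over the 21 libraries it was 0.27 (adjusted p = 0.199). The responses differed by 0.43 on the log2 scale (95% interval -0.02 to 0.88, adjusted p = 0.373), so a difference between haplotypes was not shown. Mean levels ran from activated NZB (49.6 ± 7.85 CPM) and activated B6 (46.7 ± 9.56) to resting B6 (41.7 ± 6.93) and resting NZB mtDNA cells (33.1 ± 5.72), and no neighbours differed beyond their spread. Nfs1 shares its last 1000 bases with Gm28036 on the same strand, which had 4 counts.

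Iscu (chr5:113910776-113917545, plus strand, 5 exons) encodes the scaffold on which clusters are built. In B6 mtDNA cells its lowest, median and highest levels were 34.4, 43.0 and 53.4 CPM at rest and 25.8, 30.1 and 40.2 CPM after activation. Iscu fell by 0.45 on the log2 scale (SE 0.14, 95% interval -0.73 to -0.17, adjusted p = 0.00787), to 0.730 of the resting level, although the ranges overlapped. With library set in the fit the adjusted p was 0.0770. In NZB mtDNA cells the levels were 16.9, 38.5 and 44.4 CPM at rest and 24.4, 34.8 and 44.0 CPM after activation, with a log2 fold change of -0.16 (95% interval -0.46 to 0.14, adjusted p = 0.364) that was not called. The lowest resting NZB value was 1 count in replicate 2, the smallest library. The means of 42.9 ± 6.13 CPM in resting B6, 35.1 ± 9.61 in resting NZB, 33.8 ± 6.73 in activated NZB and 31.3 ± 5.37 in activated B6 mtDNA cells formed a row without a step beyond the spread. The responses differed by 0.30 on the log2 scale (95% interval -0.11 to 0.70, adjusted p = 0.511), so a difference between haplotypes was not shown. Over the 21 libraries mean Iscu was 40.2 ± 2.85 CPM in resting (n = 4) and 34.8 ± 6.97 CPM in activated NZB mtDNA cells (n = 5), again without a step beyond the spread. Iscu and Nfs1 each had the same sign in both haplotypes.

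Libraries fell into 3 sets of 8 by reads per UMI, and in B6 mtDNA cells these sets largely coincided with the state. The B6 response could be read only within the second set, 1 activated against 4 resting libraries, where the log2 CPM difference was -0.81 for Fth1, -0.45 for Ftl1, -0.55 for Slc25a28, -0.49 for Iscu and 0.57 for Aco1. In NZB mtDNA cells all 3 sets held both states. The differences there were -0.85, -0.94 and -0.83 for Fth1, -0.46, -0.67 and -0.97 for Slc25a28, 0.59, 0.61 and 0.45 for Slc11a2, 0.63, 0.76 and 0.56 for Aco1 and 0.55, 0.30 and 0.66 for Nfs1. For Ftl1 they were -0.45, -0.71 and 1.22, and the last was -1.16 without resting replicate 2. Apart from that value, each of these genes had the sign of its pooled value in every set.

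Between the haplotypes none of the 9 genes was called by edgeR, neither at rest, where 2.76% of all genes were called, nor after activation (0%), nor for the difference between the responses (0%). Over the 21 libraries edgeR called 0 of the 9 as well, beside 6.11%, 0% and 1.04% of all genes. DESeq2 also called 0 in each of these comparisons over the 24. At an unadjusted p under 0.05, edgeR gave 2196 of 10566 genes at rest, 327 after activation and 1512 for the difference between the responses over the 24 libraries. Over the 21 libraries it gave 2366, 1068 and 2022 of 10826 genes. Of the 9 genes it gave 2 at rest and 0 in each of the other comparisons over the 24 libraries, and 0 in all 3 over the 21. Those at rest were Nfs1, with a log2 difference of -0.34 in NZB against B6 mtDNA cells (95% interval -0.67 to -0.01, unadjusted p = 0.0435, adjusted p = 0.223), and Slc25a28, with 0.24 (SE 0.12, unadjusted p = 0.0488, adjusted p = 0.237). No gene had ranges apart between the haplotypes in either state, beside 1.14% of all genes at rest and 0.0568% after activation.

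Fth1 gave the narrowest bounds between haplotypes. Its log2 difference of NZB against B6 mtDNA cells at rest was -0.03 (95% interval -0.27 to 0.20), and its responses differed by -0.05 (95% interval -0.38 to 0.27). The larger point estimates of a difference between responses were 0.33 for Slc11a2, 0.39 for Aco1 (95% interval -0.02 to 0.79, adjusted p = 0.370), 0.43 for Nfs1 and -0.79 for Ireb2 (SE 0.54, adjusted p = 0.516). After activation the haplotype differences lay between -0.49 for Ireb2 and 0.13 for Iscu and for Tfrc, all at an adjusted p of 1.

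By counts of genes whose ranges did not overlap between the states, B6 mtDNA cells had Fth1, Ftl1 and Slc25a28, 3 of 9 beside 31.8% of all genes, and NZB mtDNA cells had Fth1 and Slc11a2, 2 of 9 beside 18.9%. Over the 21 libraries NZB mtDNA cells also had Ftl1 and Slc25a28, 4 of 9 beside 36.3%.

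The genes most like Tfrc, Fth1 and Ftl1 over the 24 libraries were found by the mean absolute difference between log2 CPM profiles, each centred on its own mean, among 9780 genes. For Fth1 they were Ripor1 (0.129), Lmo4 (0.157) and Nr1h2 (0.180), where the median gene stood at 0.616. For Ftl1 they were Abhd16a (0.338), Txk (0.349) and Hagh (0.373), beside a median of 0.888. For Tfrc they were Prnp (0.502), the metal transporter Slc39a8 (0.527) and H2az1 (0.543), beside a median of 0.961, and with so few Tfrc counts these distances are wide.

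The remainder of the iron pathway was followed in 113 further genes in 12 lists, of which 93 were tested. In B6 mtDNA cells 28 were called higher and 24 lower, and in NZB mtDNA cells 34 higher and 22 lower. All list counts below stand beside 22.4% higher and 24.5% lower among all genes in B6 and 25.2% and 28.4% in NZB mtDNA cells. Genes named below with a count but without values were added after their values were seen.

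**Figure D3:**
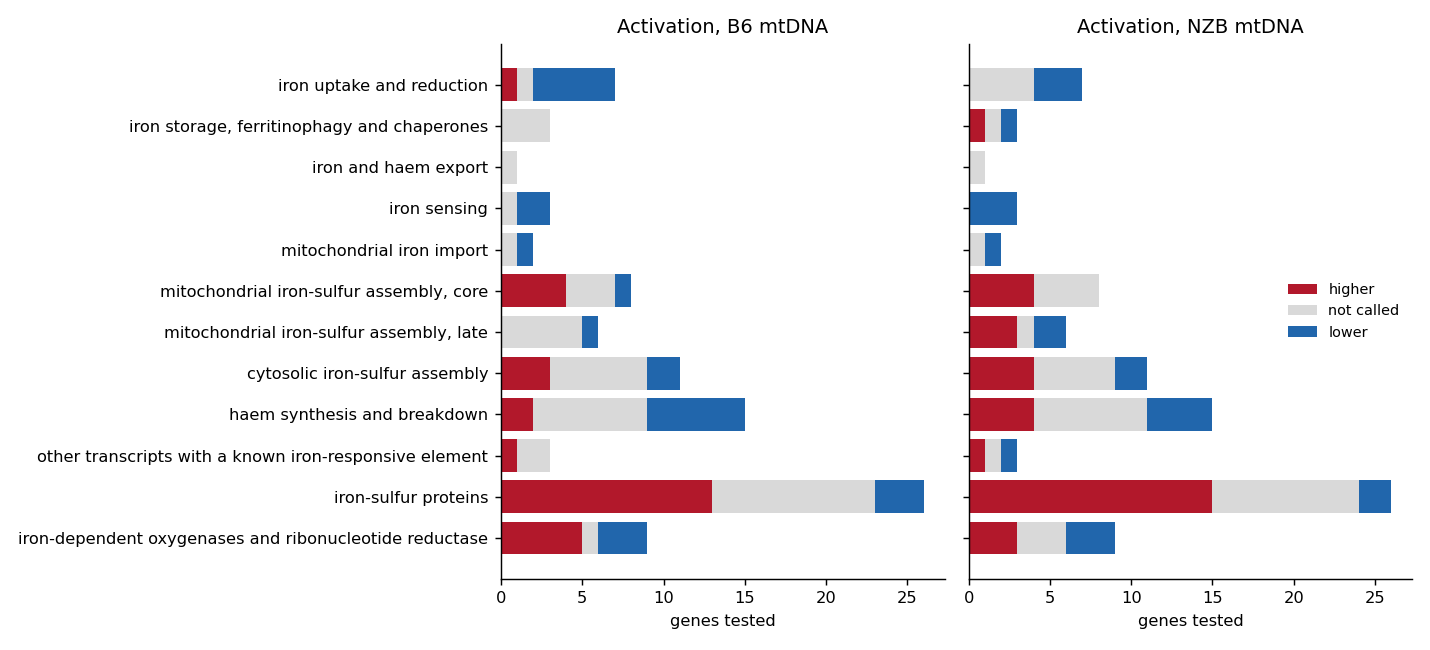
Number of genes of each iron list, without the 9 genes above, that were called higher, called lower or not called after activation in B6 mtDNA (left) and NZB mtDNA (right) cells. Iron-sulfur proteins form the longest list, with 13 of 26 tested genes higher in B6 and 15 of 26 in NZB mtDNA cells.

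The longest list, the proteins that carry iron-sulfur clusters, had 13 of 26 tested genes higher and 3 lower in B6 (Cisd2, Ercc2 and Mocs1) and 15 higher and 2 lower in NZB mtDNA cells (Cisd2 and Ercc2). Its median log2 fold change was 0.33 in B6 and 0.50 in NZB mtDNA cells, beside -0.03 and -0.06 over all genes. Cisd1, an outer mitochondrial membrane protein, rose by 1.27 in B6 (adjusted p = 1.06e-09) and by 2.02 in NZB mtDNA cells (adjusted p = 2.07e-12) on the log2 scale. Sdhb, the iron-sulfur subunit of succinate dehydrogenase, rose by 1.16 and 1.24 (adjusted p = 9.40e-09 and 4.99e-09). Cisd2 fell by 0.56 and by 0.48 (adjusted p = 0.00210 and 0.00805). Some of the B6 calls in this list were lost with library set in the fit.

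Of 8 further core assembly genes tested, 4 were higher in each haplotype, among them Hscb and Ndufab1 in both, and Glrx5 alone was lower, in B6 mtDNA cells. Ndufab1, the mitochondrial acyl carrier protein that stabilises the desulfurase complex, rose by 0.58 in B6 (adjusted p = 0.000161) and by 1.22 in NZB mtDNA cells (adjusted p = 9.99e-09) on the log2 scale. Hscb, a co-chaperone of cluster transfer, rose by 0.44 and 0.59 (adjusted p = 0.0169 and 0.00258). With library set in the fit, Ndufab1 alone of the core genes higher in B6 stayed called (0.64, adjusted p = 0.00185). The B6 values of Hscb (0.28, adjusted p = 0.274) and Hspa9 (0.53, adjusted p = 0.0971) were then not called, nor was that of Glrx5 (-0.22, adjusted p = 0.420). Of 6 late assembly genes, Iba57 was lower in B6, and in NZB mtDNA cells Bola1, Bola3 and Nfu1 were higher and Iba57 and Isca1 lower. Iba57 in B6 mtDNA cells was not called with library set in the fit (adjusted p = 0.0856), nor Isca1 in NZB mtDNA cells over the 21 libraries (adjusted p = 0.0522). Of 11 cytosolic assembly genes, 3 were higher and 2 lower in B6 and 4 higher and 2 lower in NZB mtDNA cells. Mms19, lower in both, was not called in B6 with library set in the fit (adjusted p = 0.167). Nubp1, a scaffold of cytosolic assembly, rose by 0.94 and 1.17 (adjusted p = 4.22e-07 and 2.66e-08), while the reductase Ndor1 fell by 0.80 in both (adjusted p = 0.00104 and 0.00136).

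Fbxl5, the iron-sensing receptor of the ubiquitin ligase that degrades iron-regulatory proteins, fell by 0.67 in B6 and by 0.88 in NZB mtDNA cells on the log2 scale (adjusted p = 0.000360 and 2.20e-05). Its partner Skp1 fell by 1.56 and by 1.07 (adjusted p = 0.000517 and 0.0114), at low levels. Its means at rest and after activation were 6.81 and 2.32 CPM in B6 and 12.3 and 4.50 CPM in NZB mtDNA cells. Only the resting NZB mean reached 10 CPM, and it was raised by 33.9 CPM in resting NZB replicate 2, the smallest library. Over the 21 libraries, which leave it out, the values were -1.56 and -0.91 (adjusted p = 4.25e-05 and 0.0123). Cul1 had a log2 fold change of -0.10 in B6 (adjusted p = 0.698) and fell by 0.76 in NZB mtDNA cells (adjusted p = 0.00275). With Aco1 and Ireb2, described above, the sensing list held 5 tested genes, 1 higher and 2 lower in B6 and 1 higher and 3 lower in NZB mtDNA cells.

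In the uptake list, Slc39a14 was higher and Mcoln1, Slc11a1, Steap3, Tfr2 and Trf lower in B6, and Slc11a1, Tfr2 and Trf were lower in NZB mtDNA cells, of 7 tested. Trf, the iron carrier of blood plasma, was 29.9 CPM at rest and 1.66 CPM after activation in B6 and 32.6 and 1.19 CPM in NZB mtDNA cells. Tfr2, the second transferrin receptor, was 17.2 and 1.05 CPM in B6 and 7.60 and 0.204 CPM in NZB mtDNA cells. Beside them the macrophage and erythroid marker sums were lower after activation, as given above, and the part of those cells' RNA was not tested. In the storage list, Pcbp1, an iron chaperone of ferritin, rose by 0.37 on the log2 scale in NZB mtDNA cells (adjusted p = 0.0127) and had 0.05 in B6 mtDNA cells (adjusted p = 0.760), and Ncoa4, the receptor for ferritin breakdown, was lower in NZB mtDNA cells over the 24 libraries but was not called over the 21 (adjusted p = 0.143) or with library set in the fit (adjusted p = 0.0946). Of the export list 1 of 7 genes was tested and it was not called by edgeR in either haplotype.

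In the haem list, 2 of 15 genes were higher and 6 lower in B6 and 4 higher and 4 lower in NZB mtDNA cells. Over the 21 libraries it had 3 higher and 9 lower in B6 and 8 higher and 3 lower in NZB mtDNA cells, so that the balance in NZB mtDNA cells depended on the libraries kept. Over the 24 libraries, some of the genes lower in B6 were not called with library set in the fit. Hmox2, the constitutive haem oxygenase, rose by 0.62 and 0.52 on the log2 scale (adjusted p = 2.91e-05 and 0.000259), and Blvra, a biliverdin reductase, by 0.64 and 0.97 (adjusted p = 0.00105 and 1.54e-05). Slc25a38, which carries glycine into mitochondria for haem synthesis, fell by 1.11 and by 1.25 (adjusted p = 3.04e-06 and 8.99e-07). Alas2, the erythroid enzyme of the first step and itself one of the erythroid markers, was 36.4 and 0.426 CPM at rest and after activation in B6 and 14.7 and 0.188 CPM in NZB mtDNA cells. The resting NZB mean was carried by a single library at 75.9 CPM, and over the 21 libraries the NZB log2 value moved from -6.09 to -3.46 and was not called (adjusted p = 0.0674). In the oxygenase list, Rrm2, the iron-bearing subunit of ribonucleotide reductase, rose by 1.86 and 2.70 (adjusted p = 0.000143 and 3.78e-06), and Egln3, an oxygen-sensing hydroxylase, by 2.62 and 2.00 (adjusted p = 3.91e-07 and 2.46e-05). Kdm6b, a histone demethylase, fell by 2.65 and by 3.36 (adjusted p = 1.39e-10 and 4.36e-12).

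**Figure D4:**
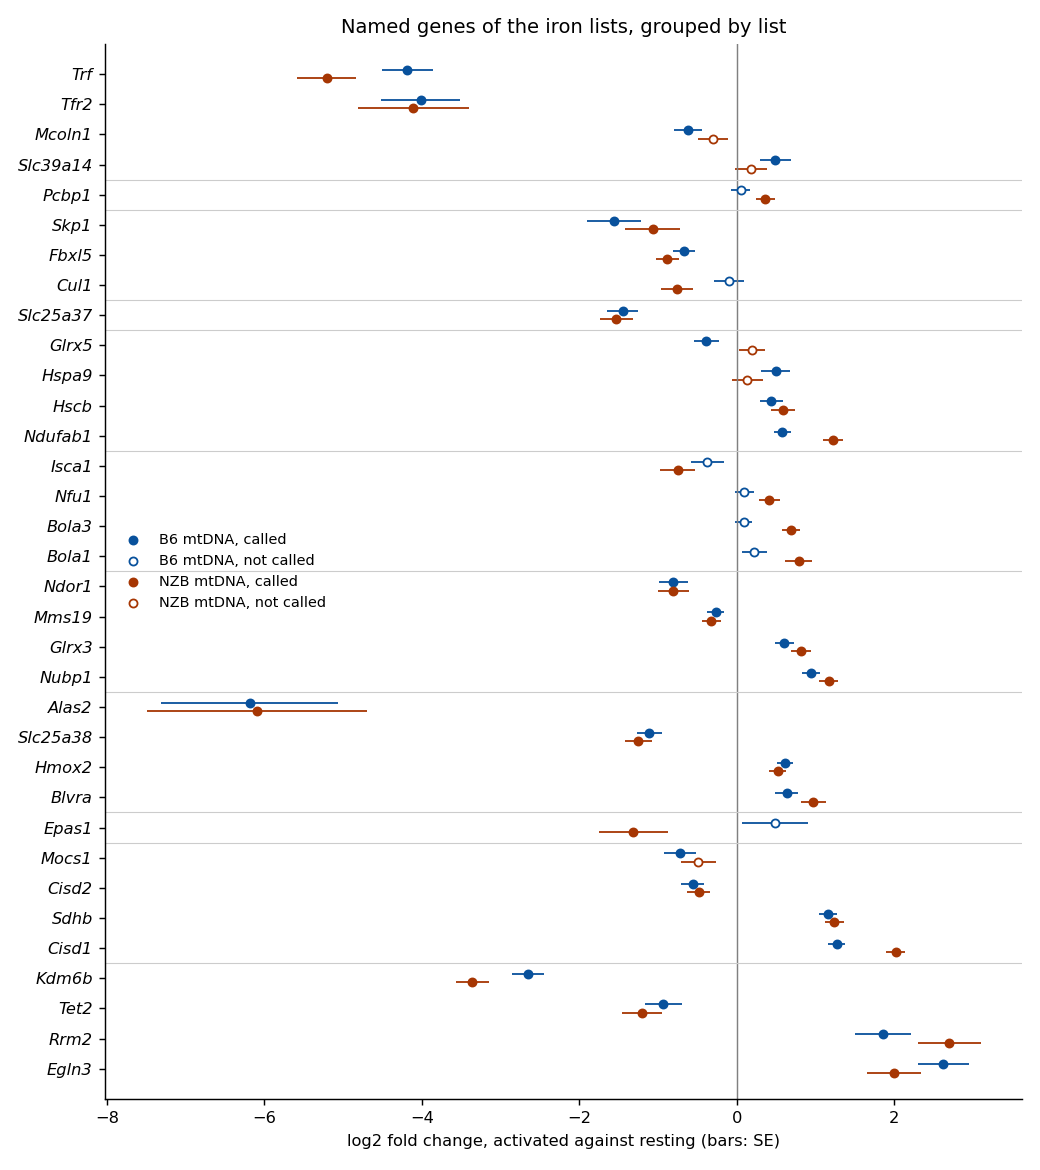
Log2 fold change of activated against resting cells for the named genes of the iron lists in B6 mtDNA (blue) and NZB mtDNA (orange) cells, with lines between lists. Bars give the SE and filled circles passed an adjusted p of 0.05. Cisd1, Sdhb, Nubp1, Rrm2 and Egln3 lie to the right in both haplotypes, and Trf, Tfr2, Alas2 and Kdm6b lie farthest to the left.

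At rest, 4 of the 93 genes were called between the haplotypes, all lower in NZB mtDNA cells, where 0.861% of all genes were called lower. Cisd1 was 34.3 ± 4.76 CPM in B6 and 21.8 ± 3.27 CPM in NZB mtDNA cells (log2 difference -0.60, adjusted p = 0.0265), and Ndufab1 was 123 ± 17.8 and 89.8 ± 10.4 CPM (-0.45, adjusted p = 0.0432). Bola3 was 91.3 ± 10.5 and 70.6 ± 11.2 CPM (-0.42, adjusted p = 0.0430), and Cpox, of haem synthesis, was 108 ± 42.0 and 53.3 ± 32.4 CPM (-1.01, adjusted p = 0.0444; SD, n = 6 for each mean). Cpox is named here after its values were seen. With library set in the fit none of the 4 was called by edgeR, at adjusted p of 0.0745 for Cisd1, 0.136 for Ndufab1, 0.135 for Bola3 and 0.114 for Cpox.

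Over the 21 libraries 19 of 94 further genes were lower and 1 (Kdm6b) higher in resting NZB mtDNA cells, beside 3.88% and 2.24% of all genes. The number lower ranged from 6 to 22 when each of the 21 libraries was left out, with 6 in the absence of resting NZB replicate 5 and 12 in the absence of resting B6 replicate 5, and 12 were lower with library set in the fit. Of the 19, 10 belong to the haem list. Erythroid marker sums were 575 to 7813 CPM in the resting B6 libraries and 195 to 400 CPM in the 4 resting NZB libraries kept there. Neutrophil marker sums were 658 to 7641 CPM and 405 to 919 CPM in the same libraries, and 6 of 8 tested neutrophil markers were called lower in NZB mtDNA cells. The part of these cells' RNA was not tested.

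For the difference between the responses, 0 of the 93 further genes were called by edgeR over the 24 libraries, and 11 of 94 over the 21 libraries, all with the larger log2 value in NZB mtDNA cells, beside 1.04% of all genes in either direction. Among them were Cisd1 (0.81, adjusted p = 0.0422), Ndufab1 (0.72, adjusted p = 0.0439), Glrx5 (0.77, adjusted p = 0.0483), Bola3 (0.66, adjusted p = 0.0498) and Rrm2 (1.79, adjusted p = 0.0439). These calls stood close to the threshold: in 13 of the 21 fits that left out a library none of the listed genes was called, and none was called with library set in the fit. Calls remained, for 2 to 14 genes, without any one of activated NZB replicates 3 and 4, resting NZB replicate 3, activated B6 replicates 4 and 5 and resting B6 replicates 2, 3 and 6.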

How the data were processed

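Tconv RNA was measured by bulk MARS-seq in 24 libraries. The authors trimmed reads with cutadapt, dropped those under 30 bases, mapped them with STAR to 1000-base 3′ regions of GRCm39, counted genes with htseq-count, collapsed UMIs and corrected for saturation. The UMI-corrected counts were used as deposited by the authors. Both tables hold counts, and the second, larger one was an alternative. The tables held 1 column that matched no sample and was not used. Groups came from the labels.

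Genes were fitted in R 4.3.3 with edgeR 4.0.16 (quasi-likelihood, TMM, filterByExpr, 4 groups, Benjamini-Hochberg over all genes tested), and log2 CPM took a prior count of 2. Alternatives included DESeq2 1.42.0, other scalings, filters, blocks and library subsets. Scripts were tested on simulated data. The 9 genes, the lists and the markers were chosen with earlier results of these data known. Named are all 9 genes, up to 2 called genes at each end of a list that reach 10 CPM in a group, 3 genes most like each of Tfrc, Fth1 and Ftl1, and close copies. Some genes of the lists are counted but not reported here by name. Libraries of a group were not copies of each other (chi-square over degrees of freedom 2.97 or more in 60 pairs). Tables and figures were made in Python 3.11.15.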

Additional observations from a re-analysis of the deposited data

Results flagged for a closer look

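Of 36 sets of 6 libraries (9 genes in 4 groups), 3 held a library far from the others by Dixon's test, and chance alone marks about 1 in 20. Resting B6 replicate 5 stood above its group for Aco1, at 33.1 CPM with the next library at 28.0 CPM. The same library stood above its group for Nfs1, at 55.5 CPM with the next at 41.1 CPM. Activated NZB replicate 4 stood above its group for Ireb2, at 11.3 CPM with the next at 5.86 CPM.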

How the results depend on the processing

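The number of the 9 genes called after activation in B6 mtDNA cells was 4, and it was 2 with library set as a term over the 24 libraries and 2 over the 21, the last chosen after seeing the data, since Aco1 and Iscu were lost (Iscu at an adjusted p of 0.0770 and 0.0534). With a log2 difference of at least 1 required as well, it was 0 in B6 and 0 in NZB mtDNA cells, where 17.7% and 23.4% of all genes passed. Without single libraries it was 3 to 6 in B6, 5 to 6 in NZB and 0 to 0 in the other 3 comparisons. The other 61 values of these counts outside single-library fits stayed within 1.5 times the main count. Scaling by library totals moved the median of all genes from -0.03 to 0.10 in B6 and from -0.06 to 0.06 in NZB mtDNA cells, and Slc11a2 was then called in B6 mtDNA cells as well (0.40, adjusted p = 0.0113). Ftl1 in NZB mtDNA cells missed the threshold in the second table (adjusted p = 0.0904) and in a fit of the NZB libraries alone (0.110), and Aco1 in B6 mtDNA cells without a filter on low counts (0.0657) and in the second table (0.0566). No called value of a single gene changed sign in any alternative run. Among the further listed genes, counts at rest and for the difference of responses depended on the libraries kept, as given with them.

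Deviations of same-numbered libraries correlated at -0.16 to 0.25 over 9 pairs by label number, 3 of them over 0.1. By title number they correlated at -0.19 to 0.25 over 12 pairs, 4 of them over 0.1. These values do not settle whether the replicate numbers pair the libraries, and the main fit used no pairing. With a replicate block by label number, 5 genes were called in B6, 5 in NZB and 0 for the difference of responses, and the same over the 21 libraries, with Ftl1 called in B6 (adjusted p = 0.0183) and Nfs1 lost in NZB mtDNA cells (0.39 at an adjusted p of 0.0603, and 0.27 at 0.199 over the 21). With a block by title number, 4 were called in B6, 5 in NZB and 0 in the other comparisons, with Ftl1 lost in NZB mtDNA cells (0.0501). Depth limits Tfrc and Ireb2, with at most 30 and 43 counts in a library.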
